A study of Mus musculus with 8 samples.

Results

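The genes described here are 9 epithelial genes: the keratins Krt7, Krt8, Krt18 and Krt19, and the junction and adhesion genes Epcam, Cdh1, Perp, Dsp and Ocln. They are 9 of the 34787 genes named on a mouse expression array, and every probe that the array files name after one of them was taken. They were chosen as a set with results of these arrays known, colony cells against control among them, so their values in colony cells are a description and carry no test. Total RNA from bone marrow cultures of B6 mice with the transgene Tg(CAG-DsRed*MST)1Nagy was measured on 8 arrays of 1 colour (Cy3), 2 for each of 4 groups. All groups carry this transgene, a red fluorescent protein under the broadly active CAG promoter. For control macrophages, bone marrow cells spent 7 days in dishes with M-CSF, the growth factor of macrophages, and then stayed in control medium. The IL-4 and LPS groups were such macrophages given interleukin-4, a stimulus of alternative activation, or lipopolysaccharide, a bacterial product, for 24 hours. Colony cells were bone marrow cells kept for 7 days on an endothelial monolayer in a medium for blood stem cells. Colony cells and macrophages differ in both substrate and medium, whose effects cannot be told apart. The labels do not say whether the endothelial cells were removed before extraction, what their source was, or whether replicates are separate animals or cultures. The p-values therefore measure only the spread between these samples, which may be technical.

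Keratins are the intermediate filament proteins of epithelial cells and assemble as pairs of 1 type II and 1 type I chain. Krt7 and Krt8 are type II, Krt18 and Krt19 type I, and all 4 are typical of simple (single-layered) epithelia and of mesothelium, the lining of the body cavities. Cells of such layers are held together by adherens junctions, whose main epithelial receptor is E-cadherin (Cdh1), by desmosomes, to which desmoplakin (Dsp) anchors the keratin filaments and in which Perp is a membrane protein, and by tight junctions, in which occludin (Ocln) spans the membrane. Epcam is a surface adhesion protein of many epithelia. Macrophages in general hold few or none of these structures, although E-cadherin is known as a marker of macrophages activated with IL-4.

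The probes decide what each signal can mean, so the target sequences of 5 of the genes are shown. Each is a 60-base stretch in the sense of the transcript, as the deposited array files give it, with its position on build mm9. The first 3 belong to keratins whose signal was high in colony cells. The Epcam probe is shown because its gene gave no such signal, and the Dsp probe because it differed from another probe of the same gene.
Krt7: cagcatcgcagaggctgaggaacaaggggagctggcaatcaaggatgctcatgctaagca
Krt8: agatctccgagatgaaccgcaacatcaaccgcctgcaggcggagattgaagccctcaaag
Krt19: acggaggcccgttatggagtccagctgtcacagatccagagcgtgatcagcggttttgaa
Epcam: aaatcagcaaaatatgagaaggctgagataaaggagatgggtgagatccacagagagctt
Dsp: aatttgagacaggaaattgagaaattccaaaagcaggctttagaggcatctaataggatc
They lie at chr15:101253718-101253777 (Krt7, plus strand), chr15:101828827-101828886 (Krt8, minus strand), chr11:100002392-100002451 (Krt19, minus strand), chr17:88048972-88049800 (Epcam, plus strand) and chr13:38285480-38286579 (Dsp, plus strand). The Epcam and Dsp targets span 829 and 1100 bases of the genome for 60 bases of transcript, so each joins separate stretches of its gene. Exons and untranslated regions are not given here, since no annotation of that build was used.

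On chromosome 15 the genes Krt8 and Krt18 are neighbours, with 0 other protein-coding genes between them in the RefSeq table of assembly GRCm38.p6. Krt7 lies in the same keratin cluster, with 23 protein-coding genes between it and Krt8. Of the 9 genes, 6 had a promoter window in the RefSeq sequences of that assembly (Krt7, Krt8, Krt18, Epcam, Dsp and Ocln). The 250 bases before the start are shown for the 3 clustered keratins, whose signals were high in the same samples, and for Epcam, whose signal was not. Capitals mark every match, on either strand, to 6 motifs: the E-box of Snail and Zeb factors (CACCTG), the GC box of Sp1 (GGGCGG), the element of Kruppel-like factors (CCACCC), the core promoter element (TATAAA), the site of AP-1 factors (TGANTCA) and the site of grainyhead factors (AACNGGTT).
Krt7, chr15:101412153-101412402, plus strand: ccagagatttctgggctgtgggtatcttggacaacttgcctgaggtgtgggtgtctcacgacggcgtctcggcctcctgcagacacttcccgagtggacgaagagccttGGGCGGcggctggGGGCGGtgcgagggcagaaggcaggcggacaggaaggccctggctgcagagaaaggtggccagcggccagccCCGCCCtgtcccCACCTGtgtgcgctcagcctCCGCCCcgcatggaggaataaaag
Krt8, chr15:102004343-102004592, minus strand: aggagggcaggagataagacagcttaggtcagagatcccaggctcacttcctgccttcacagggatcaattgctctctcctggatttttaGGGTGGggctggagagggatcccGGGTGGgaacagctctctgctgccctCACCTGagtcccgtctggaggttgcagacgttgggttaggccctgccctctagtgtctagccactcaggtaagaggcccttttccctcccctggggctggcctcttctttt
Krt18, chr15:102027966-102028215, plus strand: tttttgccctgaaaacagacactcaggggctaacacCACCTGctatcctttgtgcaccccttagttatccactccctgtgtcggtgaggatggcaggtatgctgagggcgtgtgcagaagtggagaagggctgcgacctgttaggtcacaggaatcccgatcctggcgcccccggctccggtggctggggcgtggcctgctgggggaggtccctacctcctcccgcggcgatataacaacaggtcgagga
Epcam, chr17:87635729-87635978, plus strand: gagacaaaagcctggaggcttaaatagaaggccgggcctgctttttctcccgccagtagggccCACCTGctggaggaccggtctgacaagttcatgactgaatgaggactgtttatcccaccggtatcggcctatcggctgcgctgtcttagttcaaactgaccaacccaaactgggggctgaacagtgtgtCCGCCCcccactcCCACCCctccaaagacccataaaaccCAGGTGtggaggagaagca
The E-box letters occurred 1 time in each keratin window, 44 (Krt7), 111 (Krt8) and 214 (Krt18) bases before the start, and 2 times in that of Epcam. They occurred in 17.2% of all 32851 such windows. The GC box letters occurred 4 times before Krt7, 1 time before Epcam and 0 times before Krt8 and Krt18, against 32.7% of all windows with at least 1. The Kruppel-like element occurred 2 times before Krt8 and 1 time before Epcam (28.1% of all windows). The other 3 motifs, found in 12.4% (core promoter element), 6.75% (AP-1 site) and 1.79% (grainyhead site) of all windows, had no match in these 4, and no 2 matches overlapped. These are matches of letters and say nothing of what binds there.

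Signals below are scaled signals: the background-subtracted intensity of the array, scaled so that the 75th percentile is the same on all 8 arrays. The scale suits comparisons of 1 probe across arrays and none between probes, which bind with different strength. The lowest scaled signal well above background was 7.62 to 11.2 on the 8 arrays, so a value under about this level is a bound, not a measured amount. LPS replicate 2 stood apart: 72.2% of its spots were well above background, against 62.4% to 67.5% elsewhere, and 105 of its spots were uneven, against 0 to 5 elsewhere. Of 16246 probes that were dim on the other 5 macrophage arrays, 23.7% were above background on it. The same share was 0.80% to 4.56% for each of the other macrophage arrays, so each LPS value is given for both arrays.

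The label of the colony cells was set against marker lists. Beside the counts below, 24.7% of the 26504 genes tested were called higher in colony cells than in control macrophages and 46.7% lower. All 10 leukocyte markers on the list were lower in colony cells than in control macrophages (limma, Benjamini-Hochberg adjusted p under 0.05), with a median log2 difference of -3.19. Ptprc, which encodes the pan-leukocyte surface protein CD45, differed by -3.57 ± 0.10 (SE, 2 arrays per group). Leukocyte markers were still well above background on both colony cell arrays in 10 of 10 cases, with a summed scaled signal of 56950 and 58240 against 331600 and 329000 in control macrophages. Of 10 macrophage markers 9 were lower and 1 higher, with a median of -3.47. All 10 were still above background on both colony cell arrays. The 1 higher was Itgam, with 13670 and 13830 in control and 18370 and 19430 in colony cells. Adgre1, the F4/80 gene, differed by -4.41 ± 0.09 and Csf1r, the M-CSF receptor gene, by -3.73 ± 0.10. All 10 mesothelial markers were higher, with a median of 12.2. All but Upk3b and Muc16 passed the filter, well above background on both arrays of a group, only through colony cells. The filter favoured a difference for those markers there, so nothing is read from the count. The median rests mostly on dim control signals and is no measured fold. The summed scaled signal of the 10 markers was 228600 and 226300 in colony cells and 48.8 and 53.1 in control macrophages. Such sums, also that of the leukocyte markers, follow the brightest probes. Msln alone gave 124900 and 120200 in colony cells. Only 1 and 2 of the 10 mesothelial markers were above background on the control arrays. Colony cells exceeded control by at least 12432-fold for Msln (mesothelin) and at least 2601-fold for Upk3b (uroplakin 3b). In bulk samples, fewer cells of a type and less RNA per cell cannot be told apart.

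Other non-blood lists gave a mixed picture. The shares of all genes given above stand beside these counts too. Nothing is read from the endothelial, keratinocyte, and airway and gut counts. Of 11 fibroblast markers 9 were higher and 1 lower, Col1a1 by 9.06 ± 0.21 and Col1a2 by -0.90 ± 0.14, both collagen I genes. Of 6 smooth muscle markers 5 were higher, among them Acta2 by 8.25 ± 0.10 and Tagln by 5.37 ± 0.19. The fibroblast markers Pdgfra and Thy1 and the smooth muscle markers Des and Myh11 passed the filter only through colony cells. The filter favoured a difference for them there, so nothing is read from the fibroblast and smooth muscle counts either. In colony cells Des (10.6 and 10.52) and Myh11 (12.01 and 9.132) also lay close to the detection level. Of 9 endothelial markers that passed the filter 4 were higher and 4 lower. Cdh5, the endothelial cadherin, was not well above background on either colony cell array and at least 5.02-fold lower than in control macrophages, and Pecam1 differed by 0.02 ± 0.09 (adjusted p = 0.884). Esam gave 7.0 and 2.1 in control, both dim, and 4105 and 4808 in colony cells. Egfl7 gave 293 and 265 in control and 796 and 832 in colony cells. Vwf went the other way, from 8934 and 10330 to 485 and 482. Of 7 keratinocyte markers 3 were higher and 3 lower. Of 6 airway and gut markers 1 was higher and 2 were lower, with Scgb1a1 (a club cell secretory gene) at -0.72 ± 0.10, and the alveolar gene Sftpc did not pass the filter. The part of these cell types in the values below was not tested.

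**Figure D1:**
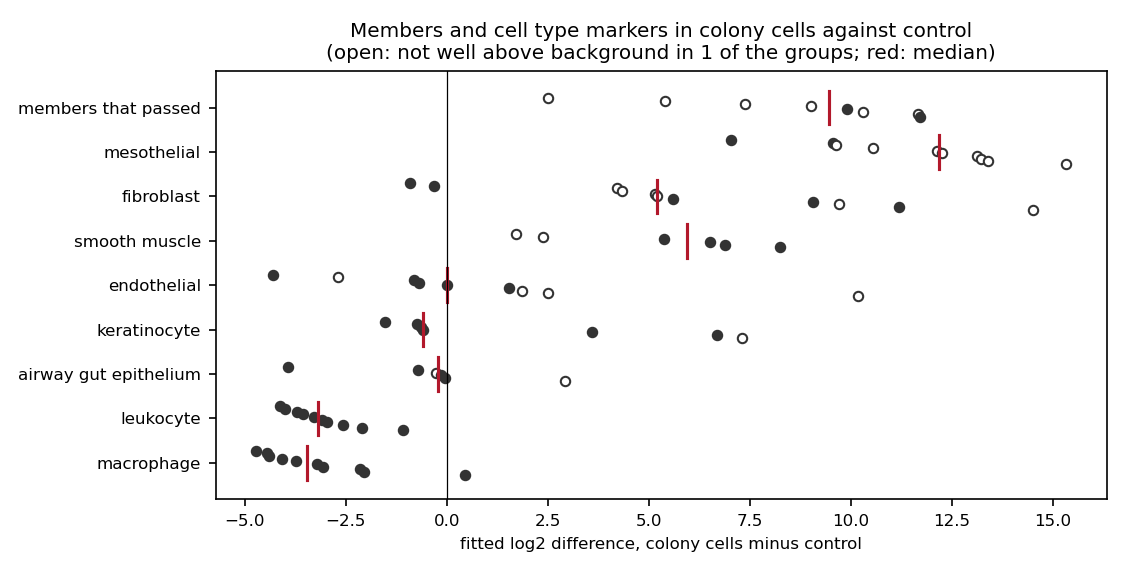
Fitted log2 difference between colony cells and control macrophages for the 8 epithelial genes that passed the filter and 8 lists of cell type markers. Each point is a gene and red lines are list medians. Open points were not well above background in at least 1 of the groups. Their fitted difference rests on dim signals and is no measured fold. It can exceed the bound, as for Ocln (fitted 2.51, bound 0.47 on the log2 scale). The mesothelial median is at 12.2, the leukocyte median at -3.19 and the macrophage median at -3.47.

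Of the 9 genes, 8 were well above background on both colony cell arrays and passed the filter, which asked for this in at least 1 group. All 8 lay higher in colony cells than in control macrophages with no overlap of the arrays. For reading that count, 24.7% of the 26504 genes tested were called higher in colony cells and 46.7% lower (adjusted p under 0.05). Nothing is read from the count, since the genes were chosen on this contrast. Epcam did not pass the filter.

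The type II keratins went from dim signals on every control array to strong ones in colony cells. Krt7, the partner of type I keratins in ducts and mesothelium, gave scaled signals of 6.94 and 2.64 in control, 3.93 and 4.86 with IL-4, 2.27 and 23.5 with LPS, and 2284 and 2156 in colony cells. Of the 6 macrophage arrays, only LPS replicate 2 was well above background. The colony cell level was at least 225-fold that of control macrophages. For this bound each dim array enters at its own signal or at its detection level, whichever is higher.

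Krt8, the type II keratin of simple epithelia, was read by 2 probes. The brighter one gave 3.61 and 9.33 in control, 9.52 and 5.56 with IL-4, 4.16 and 10.5 with LPS, and 7383 and 7267 in colony cells. No macrophage array was well above background with it, and colony cells were at least 743-fold higher than control. The other probe, whose sequence is printed above, gave 3279 and 2914 in colony cells and 7.73 and 2.46 in control. With it, LPS replicate 2 stood at 21.7 and above background, while LPS replicate 1 stood at 2.18 and was dim.

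Both type I keratins were above background on at least 1 control array. Krt18, the partner of Krt8, gave 8.35 and 12.4 in control, 7.98 and 9.30 with IL-4, 9.77 and 26.2 with LPS, and 9677 and 9794 in colony cells. It was above background on control replicate 2 and LPS replicate 2 and on no other macrophage array. The log2 difference between colony cells and control was 9.90 ± 0.47, measured on 1 of 2 control arrays. Krt19, the smallest type I keratin and a marker of ductal epithelium and mesothelium, was well above background on all 8 arrays. It gave 11.9 and 15.5 in control, 12.8 and 16.3 with IL-4, 15.2 and 30.6 with LPS, and 47800 and 43330 in colony cells. Its log2 difference between colony cells and control was 11.71 ± 0.35. The macrophage values of Krt19 overlapped between groups except for LPS replicate 2, and all of them lay close to the detection level.

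**Figure D2:**
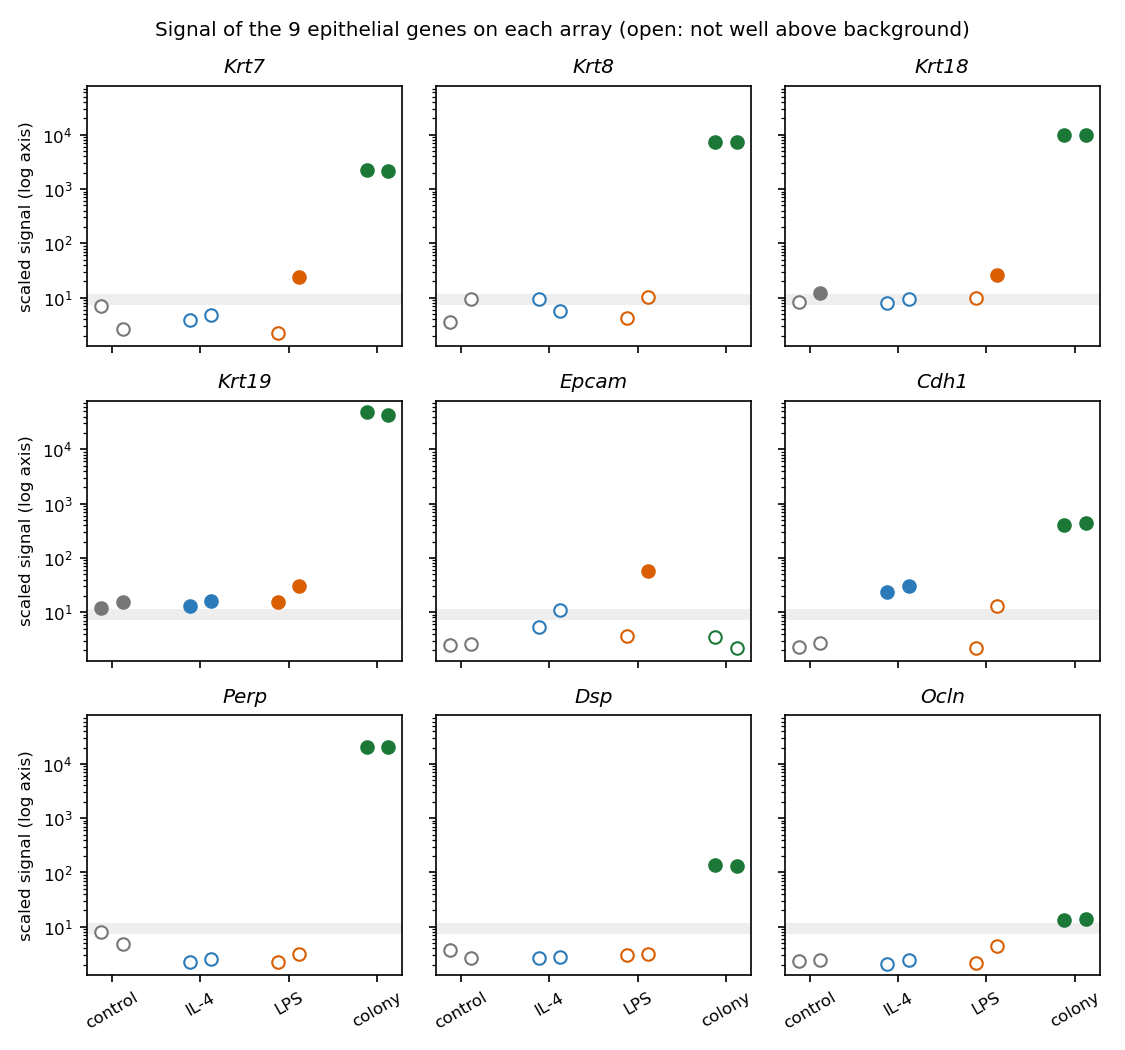
Scaled signal (log axis) of the 9 genes on each of the 8 arrays, with 1 panel per gene and 2 points per group; open points were not well above background, and the grey band spans the lowest signals above background on the arrays (7.62 to 11.2). Colony cells stand apart for every gene but Epcam, where the highest point is LPS replicate 2 at 57.9.

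The adherens junction gene Cdh1 was above background on both arrays of colony cells and of IL-4 macrophages, and dim on both control arrays. Its probe is printed in 10 spots on each array, whose mean gave 2.33 and 2.70 in control, 23.9 and 30.4 with IL-4, 2.16 and 12.9 with LPS, and 401 and 432 in colony cells. Colony cells were at least 42.2-fold above control. The repeat spots agree closely where the signal was above background: in colony cells they ran from 371 to 425 and from 399 to 462 on the 2 arrays. With IL-4, 9 of 9 usable spots on each array were above background, from 20.6 to 29.6 and from 25.3 to 33.8. On LPS replicate 2 only 5 of 10 spots were, and these spots spread from 6.86 to 28.5.

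Epcam, the adhesion gene whose probe is printed above, was the exception in the set. It gave 2.46 and 2.58 in control, 5.38 and 11.2 with IL-4, 3.64 and 57.9 with LPS, and 3.44 and 2.21 in colony cells. The only array above background was LPS replicate 2, while the 2 colony cell arrays were as dim as control. Epcam was therefore not detectable in colony cells with this probe, and no fold is given.

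Of the desmosome genes, Perp gave 8.19 and 4.82 in control, 2.23 and 2.52 with IL-4, 2.25 and 3.15 with LPS, and 20280 and 20600 in colony cells. No macrophage array was above background, and colony cells were at least 2074-fold higher than control. Dsp was read by 2 probes. The probe with 10 spots gave 3.68 and 2.70 in control, 2.63 and 2.72 with IL-4, 3.08 and 3.17 with LPS, and 139 and 130 in colony cells. That is at least 13.6-fold above control, with all 10 spots above background on both colony cell arrays and no usable spot above it on any macrophage array. With the normexp correction of background (offset 50) its fitted log2 difference fell from 5.41 to 1.27. The other probe, printed above, did not follow it: 9.42 and 2.10 in colony cells, only the first of them above background, and 22.5 on LPS replicate 2. The 2 Dsp probes therefore disagree on the colony cells, and the higher value rests on 1 of them.

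Ocln, the tight junction gene, was the weakest of the 8. It gave 2.30 and 2.48 in control, 2.10 and 2.41 with IL-4, 2.13 and 4.49 with LPS, and 13.4 and 13.8 in colony cells. The colony cells were at least 1.38-fold higher, just above the detection level. A second Ocln probe was dim on all 8 arrays, and with the normexp correction the log2 difference of Ocln turned to -0.23. That correction lowered the fitted difference of every one of the 8 genes between colony cells and control, among them Cdh1 from 7.37 to 2.71 and Krt19 from 11.71 to 9.09; Krt7 came to 4.81, Krt8 to 6.56, Krt18 to 6.87 and Perp to 7.87. For each of these 8 genes that was given a bound, this value lies below the bound, which holds for the main processing. The bounds of all other genes hold for the main processing too, and their values with the normexp correction are not given here.

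**Figure D3:**
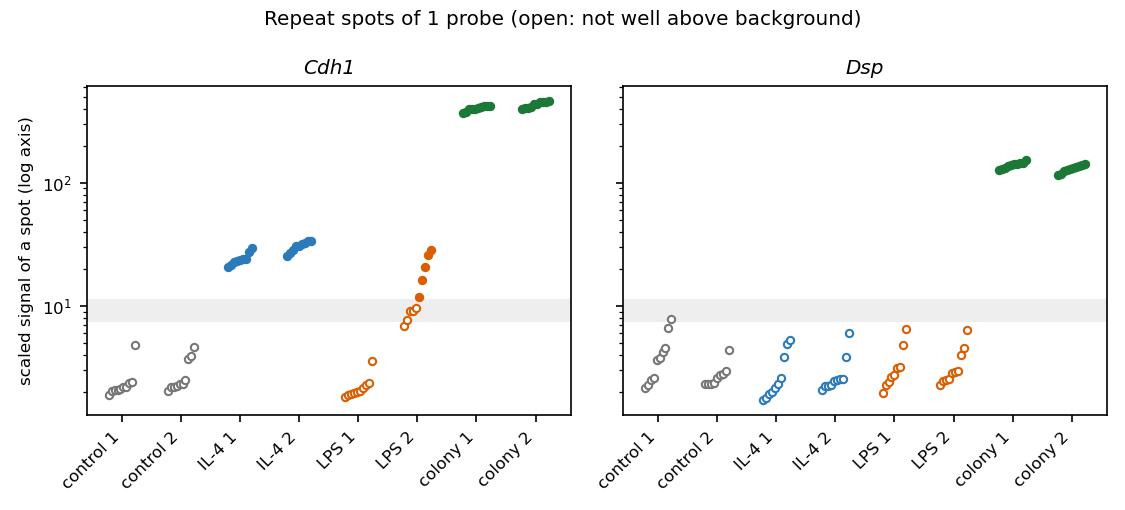
Scaled signal (log axis) of every usable repeat spot of the Cdh1 probe and of the 10-spot Dsp probe on each array; open points were not well above background, and the grey band spans the lowest signals above background on the arrays. Cdh1 spots with IL-4 lie from 20.6 to 33.8, above all control spots, and spots of LPS replicate 2 spread from 6.86 to 28.5.

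The comparison of IL-4 with control macrophages asks whether alternative activation changes these genes. Of the 8 genes tested, 1 was called higher (Cdh1) and 1 lower (Perp), while 9.87% of all 26504 genes were called higher and 9.18% lower. Nothing is read from these counts, since 6 of the 8 genes passed the filter only through colony cells, all but Krt19 and Cdh1. Cdh1 differed by 3.43 ± 0.78 on the log2 scale (SE, 2 arrays per group, limma, adjusted p = 0.035). This SE uses 1 spread shared by all 4 groups, among them the LPS arrays at 2.16 and 12.9. With only the 4 arrays compared, the difference was 3.43 ± 0.16 (limma, adjusted p = 0.0045). As both control arrays were dim, IL-4 was at least 2.73-fold higher than control, with both IL-4 arrays above both control arrays. The adjusted p did not stay under 0.05 in every fit. It was 0.062 without the filter on dim probes, and 0.073 when either colony cell array was left out. Leaving out either control or either IL-4 array gave 0.12 to 0.16. With the normexp correction the difference was 0.29 (adjusted p = 0.321). When either LPS array was left out the adjusted p was 5.4e-04. With 2 arrays a group, the smallest two-sided p of an exact permutation test is 0.333.

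**Figure D4:**
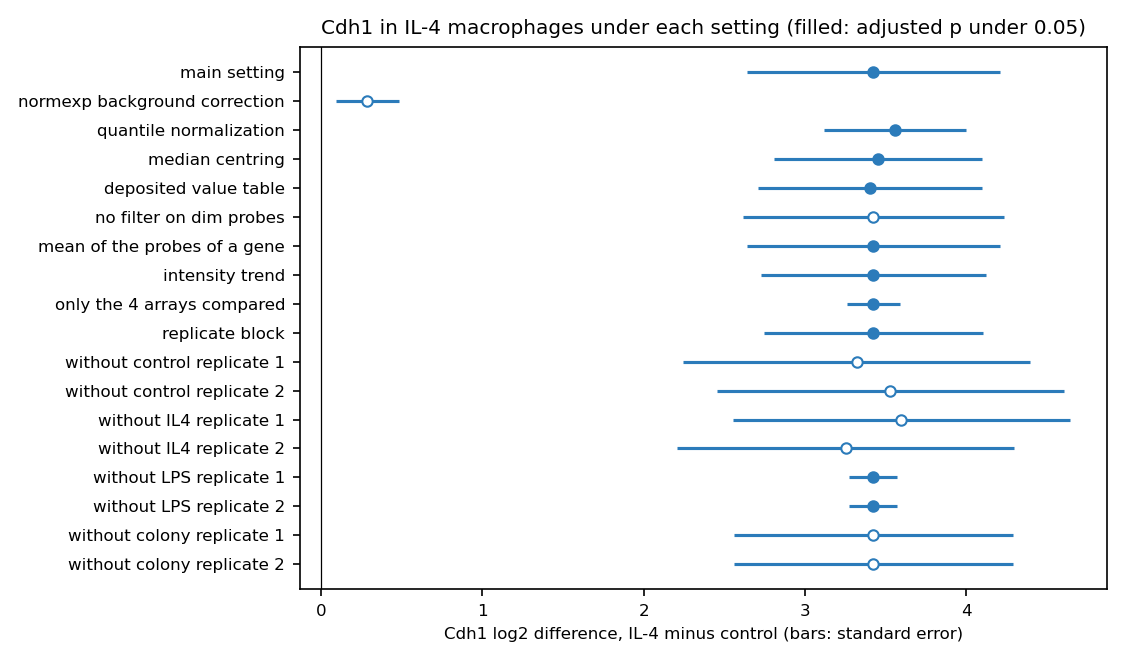
Log2 difference of Cdh1 between IL-4 and control macrophages under the main setting and 17 alternatives, with bars of 1 standard error; filled points have an adjusted p under 0.05. The difference lies between 3.25 and 3.60 in 16 of the alternatives and at 0.29 with the normexp background correction.

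Perp was called lower with IL-4 (fitted difference -1.41 ± 0.28, adjusted p = 0.023). Since it was dim on all 4 arrays compared, this is a difference between signals not well above background, and no fold is given. The call was lost in 8 of 17 alternatives, among them normexp (-0.36, adjusted p = 0.123), the fit of only the 4 arrays compared (adjusted p = 0.060) and leaving out either IL-4 array (0.117 and 0.098). Krt19 differed by 0.09 ± 0.35 (adjusted p = 0.899), and its 2 arrays per group overlapped. Krt18 was dim on both IL-4 arrays and did not pass the test (adjusted p = 0.781). The other 4 genes tested were dim in both groups.

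The comparison of LPS with control asks the same of classical activation. Of the 8 genes tested 0 were called higher and 1 lower (limma), while 28.9% of all genes were called higher and 25.8% lower. Nothing is read from these counts either, for the same reason. At an unadjusted limma p under 0.05 the count called higher was 0 as well. The gene called lower was Perp (-1.24 ± 0.28, adjusted p = 0.013), again dim in both groups and given without a fold. It was not called with only the 4 arrays compared (adjusted p = 0.061) or without LPS replicate 1 (0.050). Under other scalings the split of all LPS calls moved: 52.9% of called genes were higher in the main fit, 40.2% with the normexp correction, 39.9% after median centring and 38.5% in the deposited value table. Krt19 differed by 0.66 ± 0.35 (adjusted p = 0.159) and Krt18 by 0.65 ± 0.47 (adjusted p = 0.285).

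The LPS values rest on which array is read. Without LPS replicate 2, Krt18 differed by -0.06 and Krt19 by 0.16. Without LPS replicate 1, 3 keratins were called higher: Krt18 by 1.36 (adjusted p = 0.0096), Krt19 by 1.17 (adjusted p = 0.0105) and Krt7 by 2.46 (adjusted p = 0.019). With the normexp correction Krt8 (-0.39, adjusted p = 0.049) and Dsp (-0.40, adjusted p = 0.016) were called lower with LPS, both from dim signals. Epcam and the second probes of Krt8 and Dsp were above background on LPS replicate 2 and dim on LPS replicate 1, the pattern of 23.7% of the probes that were dim on the other macrophage arrays.

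The genes around these 9 were taken from lists of other keratins, desmosome, adherens junction and tight junction genes, and an epithelial programme (transcription factors and membrane genes of epithelia). Together 94 genes passed the filter, and in colony cells 48 (51.1%) were called higher and 33 (35.1%) lower, beside 24.7% and 46.7% of all genes. The median log2 difference was 0.83 against -0.36 for all genes tested. Of the 94, 18 passed the filter only through colony cells, which favours a difference there. The calls were 27 higher and 29 lower among the 62 genes above background on all 8 arrays, and 43 and 41 with the normexp correction. By list, the calls higher and lower were 7 and 9 of 20 other keratins, 5 and 3 of 10 desmosome genes, 11 and 4 of 16 adherens junction genes, 13 and 8 of 24 tight junction genes, and 12 and 9 of 24 epithelial programme genes.

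Among the other keratins of colony cells, Krt13 (a keratin of stratified, non-cornified epithelia) was higher by 6.80 ± 0.55 and Krt14 (of basal cells) by 6.68 ± 0.11. Krt15 was at least 35.1-fold and Krt23 at least 11.6-fold higher. Krt5, the usual type II partner of Krt14, was lower by 0.73 on the log2 scale, with scaled signals of 85.8 and 73.6 in control and 48.3 and 47.4 in colony cells. Of the keratins listed, 9 did not pass the filter in any group.

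In the desmosome list, the plakophilin genes Pkp2 (7.49 ± 0.40, 1 of 2 control arrays above background) and Pkp1 (at least 11.1-fold) were higher in colony cells, as were the plakin genes Evpl (5.40 ± 0.17) and Ppl (4.49 ± 0.24). The desmosomal cadherins Dsg1a, Dsg1b, Dsg4, Dsc1, Dsc2 and Dsc3 did not pass the filter. Dsg2, the desmoglein of simple epithelia, gave 12 and 10.5 in colony cells against 9.42 and 10.8 in control, with 1 of 2 colony cell arrays above background.

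Colony cells also held other cadherins. Cdh3 (P-cadherin) was at least 367-fold higher than in control, with 3655 and 3575 in colony cells and 2.28 and 2.30 in control. Cdh2 (N-cadherin, the cadherin of mesothelium and mesenchyme) was higher by 6.64 ± 0.21. The adhesion genes Nectin2 (4.55 ± 0.08) and Ctnnal1 (4.29 ± 0.14) were higher too. Ctnnb1, the beta-catenin gene, was lower by 0.48 on the log2 scale.

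In the tight junction list, Cxadr, an adhesion receptor at the junction, exceeded control at least 913-fold in colony cells, as did Tjp1, the scaffold ZO-1, at least 420-fold. Jam3 was higher by 6.84 ± 1.08, with 1 of 2 control arrays above background, and Cldn15 by 5.98 ± 0.35. Cldn1, Cldn2, Cldn3, Cldn6, Cldn8, Cldn18 and Cldn22 did not pass the filter, and Cldn7 was lower by 1.48 on the log2 scale. In the epithelial programme, the transcription factor Klf5 was at least 136-fold higher, Mal2 at least 12.7-fold and Spint1, a protease inhibitor of epithelia, by 5.73 ± 0.18. The Spint1 probe was above background on 1 of 2 control arrays. Grhl2, Elf3, Elf5, Ovol1, Rab25, Ap1m2 and Tmem30b did not pass the filter, and Esrp1, an epithelial splicing factor, was lower by 0.79. Relatives of these genes were higher in colony cells: Esrp2 by 2.30 ± 0.35, Grhl1 by 2.71 ± 0.23 and Grhl3 by 4.12 ± 0.38. Grhl3 was above background on 1 of 2 control arrays. In this list 12 genes were called higher and 9 lower.

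Of 9 regulators known for repressing epithelial genes that passed the filter, 7 were called higher in colony cells and 2 lower, beside 24.7% and 46.7% of all genes. Snai2 was at least 238-fold, Twist1 at least 96.5-fold, Prrx1 at least 14.9-fold and Snai1 at least 9.38-fold higher. These genes and Snai3 were dim on every macrophage array. They passed the filter only through colony cells and so had to differ there, and nothing is read from the count. Zeb2 was lower by 2.11 on the log2 scale, and Tcf4 was the other gene called lower.

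**Figure D5:**
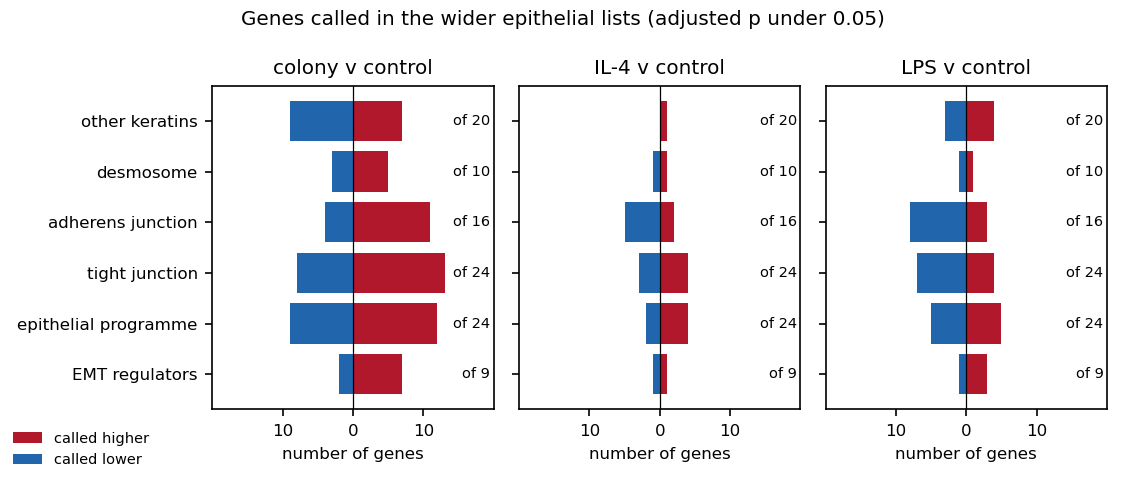
Number of genes called higher (red, right) and lower (blue, left) than control in 6 wider lists, for colony cells, IL-4 and LPS, with the number of genes that passed the filter at the right of each bar. Colony cells have the most calls in each list, such as 13 higher and 8 lower of 24 tight junction genes.

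With IL-4, 12 (12.8%) of the 94 wider genes were called higher and 11 (11.7%) lower, close to the shares of all genes (9.87% and 9.18%). The count of 23 fell to 15 without IL-4 replicate 1 and to 14 without IL-4 replicate 2. Cldn11, a claudin, was higher by 4.23 ± 0.66 (adjusted p = 0.010), from 15.3 and 12.7 in control to 266 and 257. Pkp2 was higher by 2.89 ± 0.40 (adjusted p = 0.0073), with 23.7 and 10.6 in control, 115 and 121 with IL-4. Grhl1, a grainyhead transcription factor, was higher by 2.88 ± 0.23 (adjusted p = 0.0012) and Spint1 by 2.52 ± 0.18 (adjusted p = 7.9e-04). The Spint1 probe was above background on 1 of 2 control arrays. Krt80 was higher by 0.92 ± 0.10. The catenin gene Ctnnd2 (-2.07 ± 0.11), the nectin gene Nectin4 (-1.49 ± 0.08) and F11r, which encodes the junction protein JAM-A (-1.80 ± 0.13), were lower. Pkp4 was lower by 0.28. Among the repressors, Tcf4 was lower by 1.04 and Tcf3 higher by 0.32.

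With LPS, 17 (18.1%) of the 94 wider genes were called higher and 24 (25.5%) lower, 1 of the 41 dim in both groups, beside 28.9% and 25.8% of all genes. The split of higher and lower calls was 11 and 39 with the normexp correction, 12 and 27 after median centring, 11 and 26 in the deposited value table, and 14 and 24 without LPS replicate 2. It turned to 31 and 20 without LPS replicate 1. Lad1, a gene of the anchoring filaments of basement membranes, was at least 58.5-fold higher and above background on both LPS arrays (602 and 553). Its 2 control arrays were dim (7.25 and 3.19). Dsg2 was at least 2.63-fold higher (20.1 and 35.6 with LPS). F11r was higher by 2.81 ± 0.13, Nectin2 by 2.21 ± 0.08 and Zeb1 by 3.52 ± 0.09. Krt222 (-3.73 ± 0.13), Krt80 (-2.22 ± 0.10), Ctnnal1 (-2.62 ± 0.14), the tight junction scaffold Cgn (-3.71 ± 0.09) and the lipoprotein receptor Lsr of tricellular junctions (-3.43 ± 0.09) were lower. Tcf4 was lower by 0.45. Of the mesothelial markers, 1 of 10 was called higher with LPS: Upk3b, at least 9.32-fold, with 95.6 and 88.3 on the LPS arrays. None of the 10 was called with IL-4, where 8 were dim in both groups. F11r and Krt80 thus went opposite ways with the 2 stimuli: F11r was lower with IL-4 and higher with LPS, and Krt80 the reverse. Both comparisons use the same control arrays, and the difference between the stimuli was not tested.

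The genes whose pattern over the 8 arrays was most like the mean log2 level of the 8 genes that passed were Fam180a (Pearson r = 0.999), Cdh2, Isl2, Rasl11b and Emx2 (each also r = 0.999). Cdh2 gave 68.0 and 66.9 in control and 6652 and 6844 in colony cells. These are correlations over 8 arrays in which the 2 colony cell arrays stand far from the 6 others, so they mostly read that 1 step. Of 26496 genes compared, 553 reached an r over 0.99.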

How the data were processed

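Each deposited scanner file holds 1 array. Spot intensity values come from Agilent Feature Extraction (version 10.7.3.1), per the file headers: background-subtracted and detrended within the array, with no scaling between arrays. Other columns, per the file headers, mark spots that are uneven, outlying, saturated or well above background. A value table deposited by the authors holds log2 values, which equal the log2 intensity minus 1 constant per array (column medians 2.53 to 2.96); what the constant is stays unknown. Partek 6.4 and RMA are named without a role in the submitters' processing notes. Slide and scan of the 8 arrays were not compared in the processing, so whether they were shared is not stated here.

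Uneven and outlying spots were left out, each array was set to its own 75th percentile on the log2 scale, and spots of a probe were averaged. A probe counted as above background where more than 0.5 of its spots were so marked, and was kept where this held on both arrays of at least 1 group (39411 of 55681 probes). A gene was represented by its brightest kept probe, giving 26504 genes. The model was fitted in R 4.3.3 with limma 3.58.1, with 4 group means over 8 arrays, 4 residual and 1.57 prior degrees of freedom, and Benjamini-Hochberg adjustment over all genes; a call is an adjusted p under 0.05. The script was tested on simulated data. No spot of the 9 genes was saturated. The number of arrays limits the precision. Same-numbered arrays did not deviate together (correlations of -0.16 to 0.052), so replicate numbers were not used as pairs.

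The 9 genes and all lists were chosen with earlier results of these data known. Genes named are the 9, up to 4 called genes with the largest difference per wider list in colony cells and up to 2 per stimulus (above background on both arrays of the higher group), the first 2 of each marker list and the 5 most alike. Genes named outside this rule were chosen after their values were seen: Krt5 as a keratin, Dsg2 in colony cells, Ctnnb1, Cldn7, Esrp1, Zeb2, Tcf4 in colony cells, and the genes named as not passing the filter. Others so chosen are Esam, Egfl7, Vwf, Muc16, Snai3, Itgam, Pdgfra, Thy1, Des and Myh11, and in colony cells Esrp2, Grhl1, Grhl3, Zeb1 and Tcf3. Some genes that the rule names are not reported here. Alternatives were normexp, quantile and median scaling, the deposited table, other filters, probe averaging, an intensity trend, smaller fits, a replicate block and leaving out each array.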

Additional observations from a re-analysis of the deposited data

How the results depend on the processing

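In colony cells, 143 of the 144 values computed for the 8 genes under alternatives were above control; the exception was Ocln with the normexp correction (-0.23). Only Krt19 could be fitted when genes had to be above background on all 8 arrays, and Ocln had no value from the deposited table. The number of genes called with IL-4 (5049) was 2667 after median centring, 2566 in the deposited table and 3281 with only the 4 arrays compared; leaving out 1 array gave 2004 to 5270, lowest without IL-4 replicate 2 (2169 without the other IL-4 array, 3086 without control replicate 2), and 14 to 25 for the wider epithelial genes. Small differences turned in sign: with IL-4, Krt19 was -0.17 with normexp and -0.10 to 0.27 with 1 array left out, and Krt18 -0.53 to 0.046. With LPS, normexp gave -0.20 for both Krt19 and Krt18, -0.39 for Krt8 and -0.21 for Krt7; Krt8 was -0.48 after quantile normalization and -0.0025 in the deposited table, and Dsp 0.40 there, against -0.40 with normexp. Leaving out 1 array gave -0.058 to 1.36 for Krt18, -0.50 to 0.87 for Krt8, -0.92 to 2.46 for Krt7 and -0.24 to 0.21 for Dsp with LPS. The cause was not tested. Median differences of all genes moved from 0.07 to -0.16 (normexp) and -0.11 (median centring) for LPS, and from -0.36 to -0.50 (median centring) for colony cells. With the replicate block, genes called were 18536 (colony cells), 3863 (IL-4) and 13716 (LPS), and Perp with IL-4 was no longer called (adjusted p = 0.052); it changed no other call named for the 9 genes. Crossing the colony cell numbers, chosen after seeing the data, gave 18587 calls in colony cells. Signals near background limit what can be said of Ocln, Krt18 and Krt19 in macrophages.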
